A study of Arabidopsis thaliana with 30 samples.

Results

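The leaves of wild type (WT) Arabidopsis thaliana plants of the Columbia ecotype were compared between 3 days (R-3) and 1 day (R-1) of recovery at 22 °C. All plants had first been kept for 22 h at 45 °C. The comparison takes 4 of the 30 RNA-seq libraries of the study, 2 at each stage, and each library was made from the pooled leaves of 10 plants. The other libraries came from WT leaves during the heat treatment and from plants that overexpress (OE) the grain amaranth genes Ah2880 or AhHAB4-PAI-1, with 1 transgenic line for each gene. The labels put the plants at 4 weeks, and the main text gives another age. Unheated plants are not among these samples, so R-1 is the only reference for R-3 here. The supplement of the study describes WT plants at R-3 as dying and their RNA as of low integrity, whereas its methods state that intact RNA was sent for sequencing.

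Leaves that recover from heat rebuild photosynthesis, while leaves that fail to recover stop fixing carbon. A leaf cell short of sugar switches on genes for the breakdown of amino acids, branched-chain carbon skeletons and cell wall sugars, and stores the released nitrogen in asparagine. Abscisic acid (ABA) drives a different set of genes, the dehydrins and other proteins that protect dehydrated cells. Heat shock proteins (HSP) are chaperones whose transcripts normally decline once the heat ends.

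The R-3 libraries were small, and this limits every statement below. They held 46825 and 50677 counts, against 2797785 and 3440385 at R-1 and, with R-1 included, 686550 to 5739590 in the other 28 libraries of the series. A single count at R-3 equalled 12.6 and 11.5 CPM (counts scaled to a common library total, with factors from the trimmed mean of M-values, TMM). Of 19761 genes tested, 7208 had no count in both R-3 libraries. The reading therefore rests on 1179 abundant genes, with a mean of at least 100 CPM over the 4 libraries. Counts over all genes tested and some genes below this limit are also given. They carry less weight, since 15524 of the genes tested had at most 3 counts in each R-3 library. Both R-3 libraries correlated less well with each other (Pearson's r = 0.878 across the abundant genes, on a log2 scale) than the R-1 libraries did (r = 0.994). The 5 leaf mesophyll markers RBCS1A, CAB1, LHCB2.1, RCA and PSBO1 were detected in all 4 libraries. In bulk leaves, fewer cells of a type and less RNA per cell cannot be told apart.

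A second property of the R-3 libraries bears on all results. Over 4297 genes with at least 100 CPM in any treatment, the WT R-3 profile correlated with Ah2880 OE leaves at R-1 with r between 0.658 and 0.662. With Ah2880 OE leaves at R-3, r was 0.654 to 0.660. With WT leaves at R-1, r was only 0.311 to 0.330, and with every other treatment at most 0.238. The WT R-3 libraries correlated with each other at r = 0.830. These coefficients describe profiles across genes, which are not independent, and no cause of the likeness was tested. The amaranth transgenes are not among the genes of the count table used here, so the labels were not checked against them.

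Between R-1 and R-3, 2344 of 19761 genes passed the test at an adjusted p under 0.01 (edgeR's quasi-likelihood test), which is 11.9% of the genes tested. Of these, 787 were higher at R-3 (3.98%) and 1557 were lower (7.88%). Among the 1179 abundant genes, 693 passed (58.8%), with 274 higher (23.2%) and 419 lower (35.5%). In 419 abundant genes both R-3 libraries lay above both R-1 libraries (35.5%), and in 599 they lay below (50.8%). The median log2 fold change was −0.31 over the abundant genes and −1.39 over all genes tested. Changes are therefore to be read relative to a shift of −0.31. With library totals as the only scaling this shift was 0.05, and the abundant calls split into 345 higher and 345 lower. No abundant gene called in either direction was called in the opposite one under any of 16 alternatives. Of the 274 higher genes 162 were called under every alternative, and of the 419 lower genes 213 were.

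The limit of 100 CPM lets genes in through the stage at which they were high. A mean of at least 100 CPM at both stages was found in 516 genes, of which 77 (14.9%) were higher and 101 (19.6%) lower at R-3. Of 394 genes that reached the limit through R-1 alone, 318 were called, and of 269 that reached it through R-3 alone, 197 were called.

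**Figure D1:**
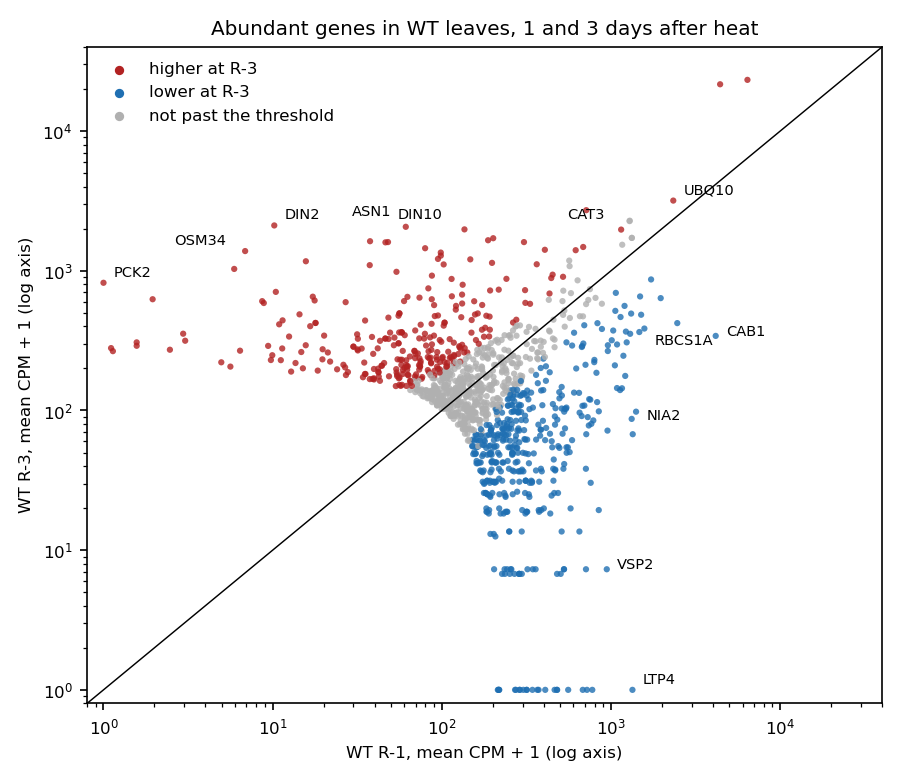
Mean CPM of the 1179 abundant genes in WT leaves at R-1 (horizontal, log axis, CPM + 1) and R-3 (vertical, log axis, CPM + 1), each point a gene and each mean over 2 libraries. The 274 genes higher at R-3 (red) lie above the diagonal and the 419 lower genes (blue) below it. The row of points at 1 on the vertical axis holds genes with 0 counts in both R-3 libraries.

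The genes with the steepest rise were almost silent at R-1. PCK2, which encodes a phosphoenolpyruvate carboxykinase of gluconeogenesis, had 0 counts in both R-1 libraries and 56 and 81 in the far smaller R-3 libraries. With 3 counts over both R-1 libraries as the floor, it was at least 2274-fold higher at R-3, where it reached 820 ± 161 CPM (SD, n = 2). DIN2, a dark-inducible β-glucosidase, had 35 and 41 counts at R-1 and 163 and 188 at R-3, a log2 fold change of 7.84 ± 0.19 (SE, adjusted p = 6.42e-37). OSM34, an osmotin of the pathogenesis-related family, had 20 and 29 against 107 and 123 counts (7.86 ± 0.22). BGAL4, a β-galactosidase, had 21 and 19 against 83 and 88 counts (7.72 ± 0.24). Separation of the libraries of both stages was a condition for choosing these genes and the 8 that follow.

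AT1G30720 and AT1G30730 encode berberine bridge enzyme-like oxidases. Their counts were 3 and 5 against 47 and 57, and 7 and 10 against 28 and 24, respectively. AT2G33160, a polygalacturonase that cuts pectin, had 1 and 4 counts at R-1 and 24 in each R-3 library. AT5G64100, a peroxidase, had 6 counts in each R-1 library and 22 and 23 at R-3. CCOAMT (AT1G67980), a methyltransferase of the caffeoyl-CoA type used in lignin precursors, had 1 and 4 against 23 and 28. AT1G19530 had 4 and 13 against 25 and 34.

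Only a single R-1 count stood behind each of the remaining members. AT5G48430, an aspartyl protease, had 0 and 1 counts at R-1 and 25 and 21 at R-3, a ratio of CPM of 2291 with a 95% counting interval of 391 to 92421. GulLO2, an oxidase of the gulonolactone type, had 1 and 0 against 21 and 23 counts, a ratio of 2191 with an interval of 373 to 88487. The width of these intervals covers counting error only.

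**Figure D2:**
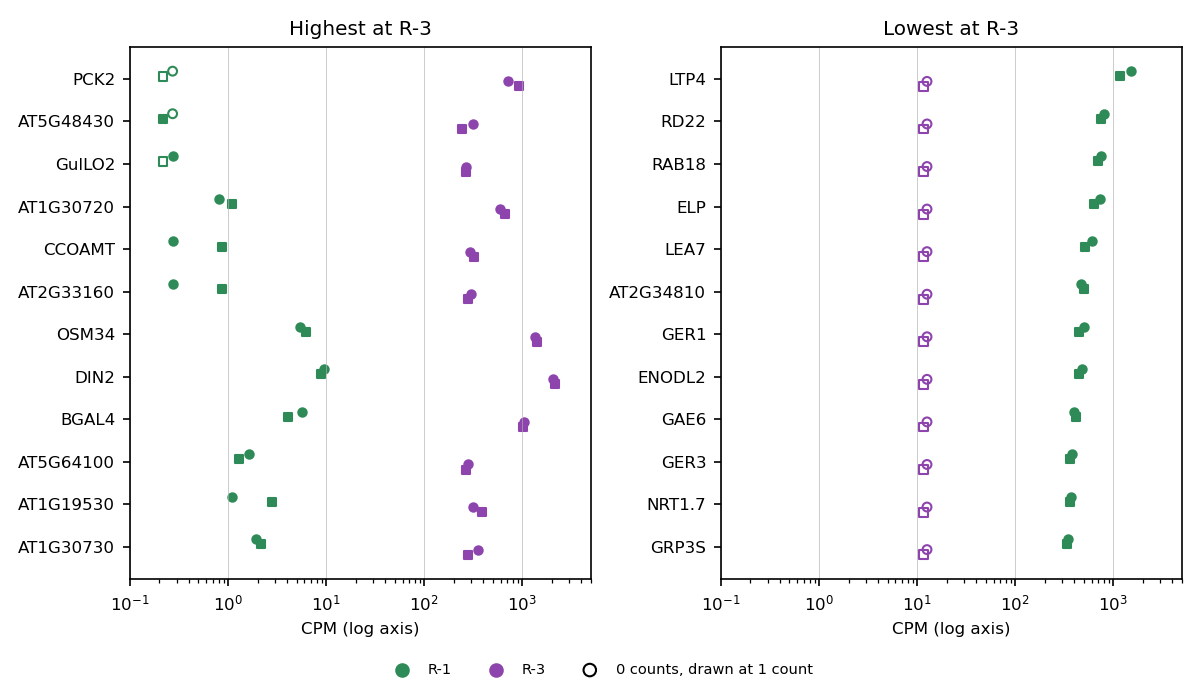
CPM (log axis) in each library of the 12 abundant genes with the highest (left) and the lowest (right) log2 fold change of R-3 over R-1, with circles for replicate 1 and squares for replicate 2. Open symbols mark 0 counts and are drawn at the CPM of 1 count, which is 12.6 and 11.5 CPM at R-3. PCK2 had 0 counts in both R-1 libraries, and all 12 genes on the right had 0 counts in both R-3 libraries.

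Of 17 tested genes of carbon starvation and amino acid catabolism, 16 were higher and none was lower (3.98% and 7.88% of all genes tested, respectively). This list and those below were chosen with earlier results of these data known, so their shares are descriptions and not independent evidence. The shares over all genes tested also cover the 15524 genes with at most 3 counts in each R-3 library. Of 13 abundant members, 12 were higher (23.2% of abundant genes), and the median log2 fold change was 3.72 against −0.31. The list took 0.127% and 0.132% of the counts at R-1 and 2.09% in each R-3 library. Of the 13 abundant members, 9 reached 100 CPM only at R-3, and of the 4 that reached it at both stages 3 were higher.

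ASN1, the asparagine synthetase that is a classical marker of sugar shortage, had 222 and 276 counts at R-1. At R-3 it had 173 and 169 counts in far smaller libraries. Its level went from 60.2 ± 0.3 to 2064 ± 164 CPM, a log2 fold change of 5.10 ± 0.15 (adjusted p = 4.24e-34). DIN10, a raffinose synthase-like gene induced in the dark, went from 135 ± 0.8 to 1978 ± 89 CPM (3.87 ± 0.14). GDH2, a glutamate dehydrogenase that releases ammonium from glutamate, went from 97.6 ± 7.1 to 1283 ± 21 CPM (3.72 ± 0.15). These genes, with DIN2, stood among the most abundant transcripts of the R-3 leaves, and the groups did not overlap in ASN1, DIN10 and GDH2.

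Enzymes for the degradation of branched-chain amino acids rose with them. The log2 fold change was 4.85 for the aminotransferase BCAT-2, 4.50 for BCE2 of the branched-chain keto acid dehydrogenase, 3.14 for isovaleryl-CoA dehydrogenase IVD, and 2.76 and 2.78 for the subunits MCCA and MCCB of methylcrotonyl-CoA carboxylase. LKR, which breaks down lysine, was higher by 1.90 and PPDK, pyruvate orthophosphate dikinase, by 2.37. PCK1, the paralog of PCK2, was the only abundant member that did not pass, with 512 and 653 counts at R-1, 15 and 18 at R-3 and a log2 fold change of 0.50. The difference between PCK1 and PCK2 was not tested. ERD5, the proline dehydrogenase that degrades proline, was also higher (321 and 391 against 47 and 57 counts, 2.86 ± 0.19). P5CS1, which makes proline, had 744 and 890 counts at R-1 and 0 at R-3, at least 10.9-fold lower, with a mean just under the limit of 100 CPM.

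The promoters of ASN1 and PCK2, a moderately abundant and a silent gene at R-1, are shown because they represent this group. They cover 250 bases before the annotated start and come from RefSeq (TAIR10.1). ASN1 lies on the minus strand at chr3:17441432-17441681 and PCK2 on the plus strand at chr5:26265930-26266179. Capitals mark ACGTG on either strand, the core of ABA-response elements and of the G-box, so that overlapping matches read CACGTG.
ASN1: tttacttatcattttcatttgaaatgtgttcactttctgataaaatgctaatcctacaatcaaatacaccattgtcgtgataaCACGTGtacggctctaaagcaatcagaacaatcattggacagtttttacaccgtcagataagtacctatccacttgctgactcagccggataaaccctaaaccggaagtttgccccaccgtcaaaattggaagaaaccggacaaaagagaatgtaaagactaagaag
PCK2: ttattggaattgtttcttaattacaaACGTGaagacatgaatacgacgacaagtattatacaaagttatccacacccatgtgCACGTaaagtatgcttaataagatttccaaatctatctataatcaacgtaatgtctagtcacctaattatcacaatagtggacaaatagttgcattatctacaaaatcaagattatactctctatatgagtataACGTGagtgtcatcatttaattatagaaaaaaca
The match in ASN1 began 167 bases before the start, and those in PCK2 began 224, 168 and 34 bases before it. ACGTG was found in 8 of 17 promoters of the starvation list and in 23.7% of the 18999 promoters of genes tested. Among the abundant genes, 28.8% of 260 promoters of higher genes and 31.4% of 414 promoters of lower genes held it, against 29.7% of all 1147. GATAAG, searched on both strands, was found in 21.2% of the promoters of higher genes, 15.7% of those of lower genes and 16.1% of all abundant genes. These shares are descriptions of letters in a window and not of bound sites.

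Of 18 senescence genes tested, 8 were higher and 5 lower (3.98% and 7.88% of all genes tested). Of 9 abundant members, 4 were higher and 3 lower (23.2% and 35.5% of abundant genes). Only 3 of these 9 reached 100 CPM at both stages, of which 1 was higher and none was lower, and the other 6 reached it through the stage at which they were high. XTH24, a cell wall xyloglucan hydrolase also known as SEN4, went from 187 ± 6 to 1653 ± 75 CPM (3.15 ± 0.14). SEN1, a dark-inducible gene, had 32 and 56 against 37 and 36 counts (5.37 ± 0.27). The senescence regulator NAP (AT1G69490) had 46 and 69 against 14 and 30 counts (4.25), and WRKY6 rose by 1.48. SAG29, a sugar transporter of the SWEET family, had 816 and 955 counts at R-1 and 0 at R-3. SAG13 and SAG21 were lower by −2.88 and −2.51. Both R-3 libraries of XTH24 and SEN1 lay above R-1, and those of SAG21 below.

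The only abundant gene of chlorophyll breakdown, the pheophorbide a oxygenase gene ACD1, was lower (968 and 1183 against 3 and 3 counts, −2.85 ± 0.39). Among protease genes, GAMMA-VPE, a vacuolar processing enzyme, was higher by 1.04 (430 and 540 against 25 and 15 counts), but without replicate 1 of R-3 it was 0.55 with an adjusted p of 0.39. The cysteine proteases RD21A, RD19 and ALP did not pass, at −0.25, −0.54 and 0.22, though RD19 was called lower without a filter on low counts and without organelle and rRNA loci (−0.65 and −0.64). The autophagy receptor NBR1, with 1557 and 1986 against 46 and 57 counts, missed the threshold at 0.53 (adjusted p = 0.014). It was called higher, by 0.62 to 1.28, with the DESeq2 Wald test, DESeq2 size factors, GC offsets, library totals, TMM factors from abundant genes only and at one depth. The value of 1.28 is that at one depth, where the median of abundant genes was 0.26.

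The basic chitinase HCHIB and PR4, both pathogenesis-related proteins, were the 2 abundant members of the salicylic acid list, and both reached 100 CPM only at R-3. Their log2 fold changes were 1.56 ± 0.28 and 1.50 ± 0.28, and they were the only 2 of 12 members tested that were higher (3.98% of all genes tested). Their counts were 309 and 364 against 18 and 22, and 317 and 369 against 19 and 20. Without replicate 2 of R-3 both missed the threshold (adjusted p = 0.023 and 0.011). NIT2, a nitrilase of auxin and nitrile metabolism, went from 713 ± 43 to 2715 ± 8 CPM (1.93 ± 0.14) and was among the 10 most abundant genes at R-3. The catalase genes diverged. CAT3 rose from 1147 ± 77 to 1971 ± 81 CPM (0.78 ± 0.15), while CAT2 fell from 469 ± 5 to 103 ± 15 CPM (−2.20 ± 0.27). CAT1 did not pass (0.58, adjusted p = 0.061), except with library totals (0.95, adjusted p = 0.0011). Without replicate 2 of R-3, CAT3 missed the threshold (0.69, adjusted p = 0.011).

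Nuclear photosynthesis genes were mostly lower. Of 83 tested genes of the chloroplast genome, 2 were higher and none was lower (3.98% and 7.88% of all genes tested). The median over these 83 was −4.86, against −1.39 over all genes tested. The 4 abundant loci of that genome, rrn16S, rrn23S, ATCG01180 and ATCG01210, did not pass. They are rRNA genes and do not describe its photosynthesis genes. Of 40 abundant nuclear genes of the photosystems, light-harvesting complexes and electron transport, 38 were lower and none was higher (35.5% and 23.2% of abundant genes). In all 40 both R-3 libraries lay below both R-1 libraries, as in 50.8% of abundant genes. The median log2 fold change was −2.61. Of the 17 that reached 100 CPM at both stages 16 were lower (19.6% of all such abundant genes), and 23 reached it only at R-1. The list took 4.00% and 3.56% of the counts at R-1 and 0.805% and 0.825% at R-3. All 15 abundant members of the Rubisco small subunit and Calvin cycle list were lower as well (35.5% of abundant genes), with a median of −2.91. Of these, 6 reached 100 CPM at both stages.

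CAB1, a chlorophyll a/b-binding protein of photosystem II and the most abundant nuclear protein-coding transcript at R-1, had 16731 and 17295 counts there. At R-3 it had 23 and 34 counts, and its level fell from 4158 ± 565 to 341 ± 72 CPM (−3.60 ± 0.24, adjusted p = 2.78e-18). RBCS1A, a Rubisco small subunit, had 6201 and 6716 against 30 and 34 counts (−2.03 ± 0.23). TKL1, the transketolase of the Calvin cycle, had 3998 and 4969 against 10 and 14 (−2.91 ± 0.22). The groups did not overlap in any of these genes.

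Changes within the list ranged from −4.34 for CAB2 to −0.58 for PSBR, a subunit of photosystem II that did not pass. PSAH-1 of photosystem I also did not pass (−1.59, adjusted p = 0.014). The photosystem I antenna genes LHCA1 to LHCA4 stood at −1.20, −1.84, −1.85 and −2.14, and the photosystem II antenna genes LHCB2.1, LHCB2.2 and LHCB3 at −4.29, −3.44 and −2.89. These differences between genes were not tested. CAB1, CAB2 and CAB3 are close copies, so the division of reads among them is uncertain, and the same holds for the RBCS genes. In the Calvin cycle, GAPB (1418 and 1654 against 2 and 1 counts), FBA1 (1265 and 1348 against 1 and 2) and HCEF1 (787 and 870 against 1 each) were nearly undetected at R-3.

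The promoter of CAB1, on the plus strand at chr1:10477635-10477884, is shown as that of the most abundant nuclear protein-coding transcript at R-1. Capitals again mark ACGTG on either strand.
CAB1: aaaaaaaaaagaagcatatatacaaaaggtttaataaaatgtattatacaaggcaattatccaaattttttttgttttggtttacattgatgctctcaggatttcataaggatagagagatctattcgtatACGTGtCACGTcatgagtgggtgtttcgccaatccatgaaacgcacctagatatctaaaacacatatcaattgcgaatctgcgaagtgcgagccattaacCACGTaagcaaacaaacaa
The matches began 119, 113 and 19 bases before the start. Of the 46 photosystem genes, 17 had a match.

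Of 8 tested genes of nitrate assimilation and glutamine synthetase, 6 were lower (7.88% of all genes tested). The 5 abundant members reached 100 CPM only at R-1, so that their count carries no weight of its own. NIA2, the main nitrate reductase, had 5085 and 6562 counts at R-1 and 9 and 7 at R-3 (−3.87 ± 0.25, adjusted p = 1.37e-18). GLU1, the ferredoxin-dependent glutamate synthase, had 770 and 1188 counts against 1 and 0, a 39.3-fold lower CPM with a 95% counting interval of 7.05 to 1554. GS2 and GSR2, glutamine synthetases of chloroplast and cytosol, were lower by −2.18 and −2.22, and neither passed without replicate 1 of R-3 (adjusted p = 0.059 and 0.041).

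A set of strongly expressed genes was no longer detected at R-3. In 23 abundant genes both R-3 libraries had 0 counts, and the converse, 0 counts in both R-1 libraries, occurred in 1 gene, PCK2. LTP4, a lipid transfer protein of the cell surface, had 5496 and 5427 counts at R-1 and 0 and 0 at R-3, at least 73.1-fold lower with 3 counts over both R-3 libraries as the floor. LTP3, encoded next to it, had 3256 and 3701 counts against 2 and 1 (46.6-fold lower, interval 15.9 to 226). LP1, another lipid transfer protein, had 3056 and 3143 against 1 and 4. In all, 6 of 7 abundant metallothionein and lipid transfer protein genes were lower and none was higher (35.5% and 23.2% of abundant genes). However, 5 of the 7 reached 100 CPM only at R-1, and of the other 2 a single one was lower. Not being counted at this depth does not show that a transcript was absent.

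RD22, whose promoter answers to dehydration and ABA, had 2915 and 3472 counts against 0 and 0 (at least 42.8-fold lower). RAB18, a dehydrin and a standard marker of ABA signaling, had 2728 and 3207 against 0 and 0 (at least 39.7-fold). LEA7, a late embryogenesis abundant protein, had 2228 and 2338 against 0 and 0 (at least 30.6-fold).

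Of 23 tested genes of dehydrins, COR and ABA response, 13 were lower and 2 higher (7.88% and 3.98% of all genes tested). Of the 14 abundant members 10 reached 100 CPM only at R-1, and of the 4 that reached it at both stages 2 were higher, 1 was lower and 1 did not pass. LTI78 and LTI65, also known as RD29A and RD29B, had 1342 and 1772 against 2 and 3, and 1453 and 1859 against 3 and 0 counts. COR47 fell by 1.22 on the log2 scale (2569 and 2991 against 21 and 27 counts). It missed the threshold at one depth (−0.64, adjusted p = 0.052), where the median of abundant genes was 0.26. It also missed it in the edgeR fit of the 4 libraries (−1.17, adjusted p = 0.011). The exceptions were ERD14, an acidic dehydrin, with 1250 and 1482 against 48 and 48 counts (0.80 ± 0.18), and ERD15, with 657 and 801 against 25 and 31 counts (0.93). ERD14 missed the threshold when either R-3 library was left out (adjusted p = 0.042 and 0.033). The phosphatases ABI1 and HAB1, which restrain ABA signaling, did not pass (−0.74 and −0.64), while PP2CA was lower by −1.83.

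The promoter of RAB18, on the minus strand at chr5:26519448-26519697, is shown because its gene is used to read ABA signaling, again with ACGTG on either strand in capitals.
RAB18: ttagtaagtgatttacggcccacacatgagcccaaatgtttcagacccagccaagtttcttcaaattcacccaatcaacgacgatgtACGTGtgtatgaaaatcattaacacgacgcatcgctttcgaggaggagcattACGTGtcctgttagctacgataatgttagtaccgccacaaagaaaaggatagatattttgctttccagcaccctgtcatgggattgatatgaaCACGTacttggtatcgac
The matches began 163, 111 and 18 bases before the start. ACGTG was found in 14 of 23 promoters of the ABA list and in 8 of 13 of the jasmonate list. It thus occurred in the promoters of a gene that fell to 0 counts, RAB18, and of one that rose from 0 counts, PCK2.

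A further 8 of the 23 genes with 0 counts at R-3 were named by their level at R-1. ELP, an extensin-like protein, had 2680 and 2900 counts at R-1, AT2G34810, a berberine bridge enzyme-like oxidase, had 1698 and 2286, and ENODL2, an early nodulin-like protein, had 1771 and 2043. The germin-like proteins GER1 and GER3 had 1852 and 2074, and 1396 and 1675. GAE6, a UDP-glucuronate epimerase of pectin synthesis, had 1463 and 1918, NRT1.7, a nitrate transporter, had 1356 and 1670, and GRP3S, a glycine-rich protein, had 1278 and 1548. All 8 had 0 counts in both R-3 libraries, and the bounds ran from at least 18.9-fold lower for GRP3S to at least 37.4-fold for ELP. CWLP, a cell wall protein, had 2449 and 2908 against 2 and 0 counts, and AT2G10940 had 2106 and 2660 against 3 and 0.

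Of 13 jasmonate genes tested, 8 were lower and none was higher (7.88% and 3.98% of all genes tested). The 3 abundant members were lower and reached 100 CPM only at R-1, a route that favors a lower value at R-3. VSP2, a vegetative storage protein induced by jasmonate, had 3585 and 4186 counts at R-1 and 1 and 0 at R-3 (156-fold lower, interval 28.0 to 6164). LOX2, the chloroplast lipoxygenase of jasmonate synthesis, had 2562 and 3327 against 1 and 0 (118-fold lower, interval 21.2 to 4672). VSP1 had 952 and 1168 against 1 and 0. Jasmonate transcripts took 0.327% and 0.333% of counts at R-1 and 0.0214% and 0.0257% at R-3.

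The epidermis list of wax and cutin genes took 0.151% and 0.153% of counts at R-1 against 0.00427% and 0.00789% at R-3, and 6 of its 7 members tested were lower (7.88% of all genes tested). The fatty acid elongase KCS6 and the alkane synthesis gene CER1 each had 0 and 1 counts at R-3, and KCS10 had 0 in both, against 803 or more in each R-1 library. Phloem markers took 0.0698% and 0.0757% against 0.0128% and 0.00789%, with 3 of 6 tested lower, guard cell markers 0.0444% and 0.0396% against 0.0128% and 0.00789%, with 1 of 5 lower, and xylem markers 0.0183% and 0.0176% against 0 and 0.00395%, with 1 of 4 lower. These shares rest on 6 and 4 counts at R-3 for each of the phloem and guard cell lists and on 0 and 2 for the xylem list. The xylem genes XCP2 and IRX1 and the guard cell genes FMA and KAT1, none of them abundant, had 0 counts in both R-3 libraries, as did 7208 of the 19761 genes tested. The part of cell composition in the results above was not tested.

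All 8 abundant cytosolic small HSP genes reached 100 CPM at both stages, and 5 were lower and none was higher, with a median of −1.18. Of all 516 genes that reached it at both stages, 19.6% were lower and 14.9% higher. HSP18.2 went from 1485 ± 56 to 654 ± 70 CPM (−1.18 ± 0.18, adjusted p = 1.46e-06), and HSP17.4 from 1030 ± 41 to 372 ± 168 CPM (−1.48 ± 0.24). HSP17.6C-CI (AT1G53540), HSP17.8 and HSP18.5 did not pass (−0.24, 0.39 and 0.12). The endoplasmic reticulum protein ATHSP22.0 was lower by −1.66 and the chloroplast protein HSP21 by −3.24 (2839 and 3236 against 4 and 9 counts), whereas the mitochondrial HSP23.6-MITO did not pass (−0.37). HSP18.2 did not pass once all libraries were reduced to 46825 counts (−0.46, where the median of abundant genes was 0.26).

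Of 17 abundant HSP70, HSP90, HSP100 and heat shock factor genes, 6 were lower and 1 was higher, against 35.5% and 23.2% of abundant genes. The median was −0.48, near the shift of all abundant genes, and 3 of the lower genes reached 100 CPM only at R-1. Both chloroplast HSP70 genes, cpHsc70-1 (−2.38) and cpHsc70-2 (−1.66), the mitochondrial mtHsc70-1 (−1.68) and MTHSC70-2 (−1.12) and the chloroplast disaggregase CLPB3 (−2.06) were lower. The cytosolic HSP70, HSP90.1 and HSP101 did not pass (−0.30, 0.54 and 0.75). HSP90.1 was called higher, by 0.63 to 1.28, with the DESeq2 Wald test, DESeq2 size factors, library totals, TMM factors from abundant genes only and at one depth. Here too 1.28 is the value at one depth, against a median of 0.26. Differences between compartments were not tested. The cytosolic HSC70-1 was called lower (−0.62 ± 0.16), but not with library totals as scaling (−0.26, adjusted p = 0.19) nor with DESeq2 size factors (−0.43, adjusted p = 0.036), nor without either R-3 library (adjusted p = 0.023 and 0.022) or replicate 2 of R-1 (adjusted p = 0.012). HSF4, a class B heat shock factor, was higher (376 and 475 against 28 and 43 counts, 2.05). None of the 5 abundant genes of endoplasmic reticulum protein folding passed, with BIP1 at −0.71 and BIP2 at −0.69. Without organelle and rRNA loci both were called lower (−0.81 and −0.79), and BIP1 also without a filter on low counts (−0.83).

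Genes often used as references were not uniform. UBQ10, a polyubiquitin, had 8866 and 10363 counts at R-1 and 245 and 284 at R-3, and was called higher by 0.45 ± 0.13 (adjusted p = 0.0096), though not when any single library of the 4 was left out (adjusted p = 0.024 to 0.32). The elongation factor genes EF1A1 and EF1A3 did not pass (−0.02 and −0.34), and EF1A4 was lower by −1.64 ± 0.17. These genes are near-identical, so their split is uncertain. Of 13 abundant members of the housekeeping and cytoskeleton list, 2 were higher and 4 lower (23.2% and 35.5% of abundant genes). Their median was −0.34, at the level of the overall shift. Of 163 cytosolic ribosomal protein genes tested, 19 were lower and none was higher (7.88% and 3.98% of all genes tested). Of the 13 abundant ones 12 reached 100 CPM only at R-1, and the other did not pass. The list went from 1.47% and 1.30% to 0.737% and 0.738% of counts. The motif AAACCCTA, on either strand, was present in 19.0% of 163 promoters of ribosomal protein genes and in 3.64% of all promoters.

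Ribosomal RNA loci took more of the R-3 libraries. Their share was 1.68% and 1.79% at R-1 and 9.37% and 7.20% at R-3. The nuclear 18S loci AT3G41768 and AT2G01010, which are near-identical, were higher by 1.86 ± 0.19 and 2.29 ± 0.19. Chloroplast rRNA differed between the R-3 libraries, with 315 and 49 counts of rrn23S, and did not pass (0.80 ± 0.40), though rrn23S did at one depth and without a filter on low counts (1.44 and 0.67). The mitochondrial share was 0.203% and 0.206% at R-1 and 0.587% and 0.533% at R-3, and 2 of 4 abundant loci were higher (23.2% of abundant genes). Among them, ATMG00513 had 1455 and 1908 against 130 and 103 counts (1.79 ± 0.22). When organelle and rRNA loci were left out, 251 of the 274 higher and all 419 lower abundant genes were called in the same direction.

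**Figure D3:**
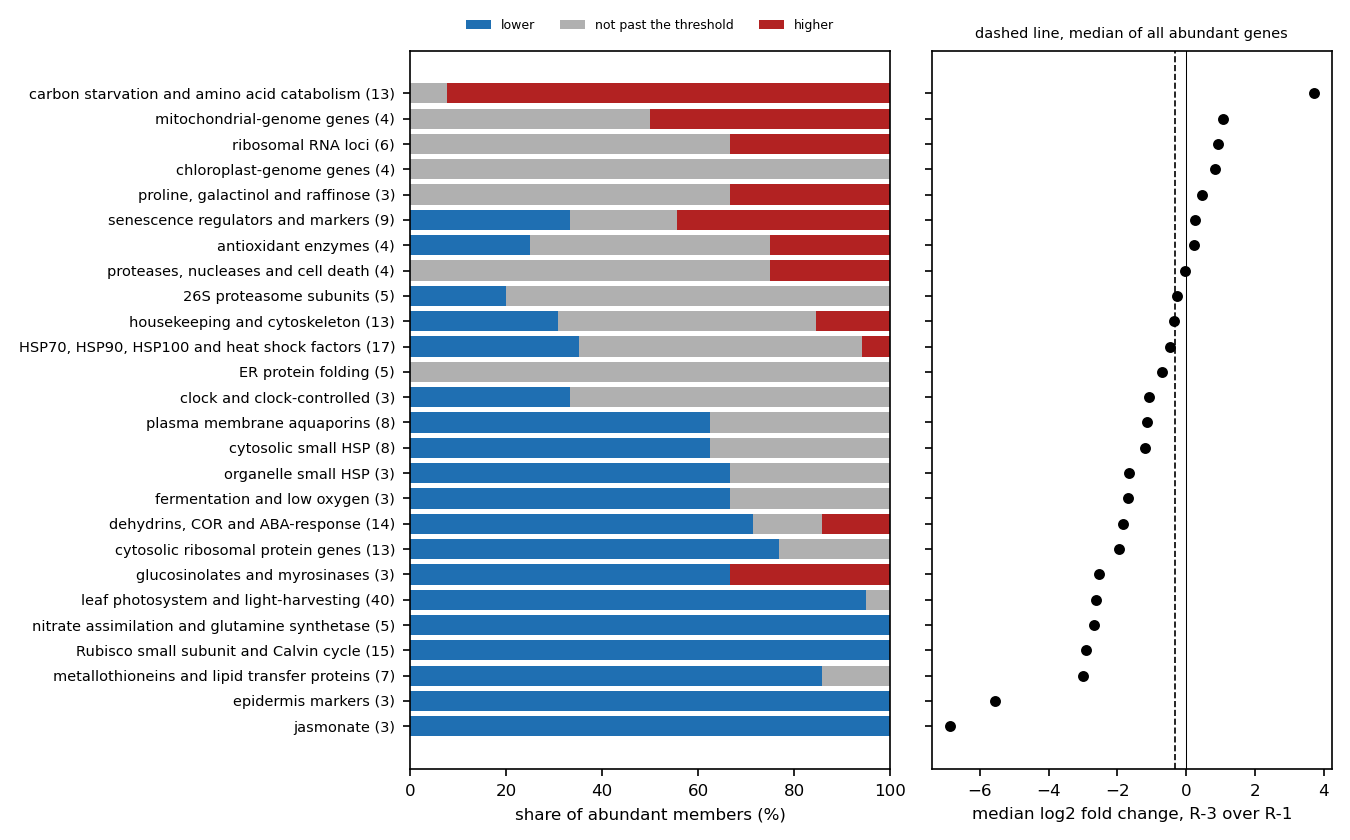
Left, share (%) of the abundant members of each gene list that were lower (blue), higher (red) or not past the threshold (gray) at R-3, with the number of abundant members in parentheses, those that reached 100 CPM at one stage only included. Right, median log2 fold change of the same members, with a dashed line at −0.31, the median of all abundant genes. Carbon starvation genes (12 of 13 higher, median 3.72) stand at the top and jasmonate genes (3 of 3 lower, median −6.87) at the bottom.

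The change at R-3 was graded by exon GC content and exon length of the genes. With the abundant genes split into 5 bins of equal size by GC content, from the lowest to the highest, the median log2 fold change was 0.47, −0.01, −0.30, −0.65 and −0.85. From the shortest to the longest of 5 bins it was −1.18, −0.37, −0.18, −0.28 and 0.03. In the transgenic lines the same medians for R-3 over R-1 lay between −0.08 and 0.11. The median GC content was 43.8% in the photosystem list, 41.3% in the starvation list, 40.0% in the ABA list and 42.4% over all abundant genes. After a correction of the counts by GC deciles, 255 of the 274 higher and 395 of the 419 lower genes were still called in the same direction. The part of RNA quality in these gradients was not tested.

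**Figure D4:**
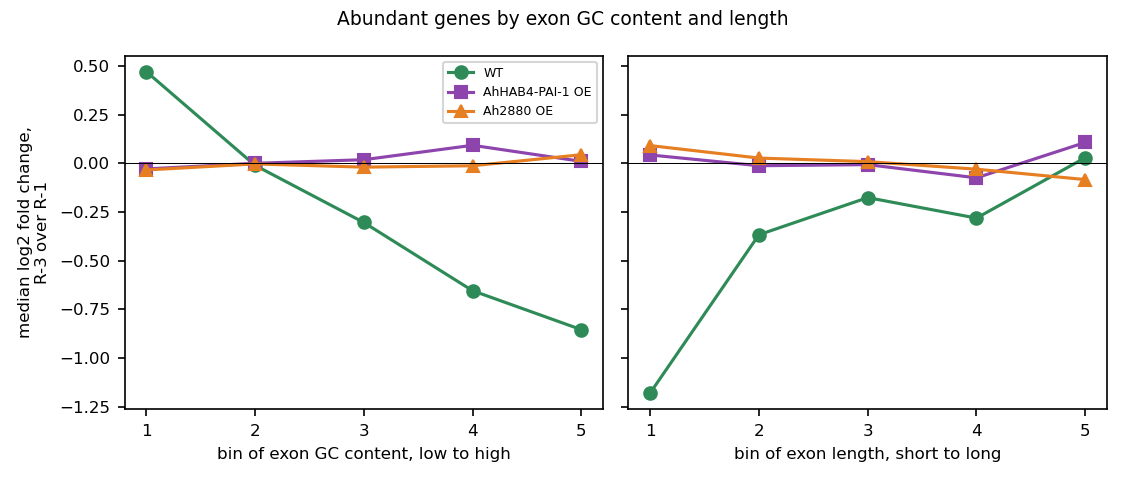
Median log2 fold change of R-3 over R-1 for the abundant genes in 5 bins of exon GC content (left) and exon length (right), in WT (green circles), AhHAB4-PAI-1 OE (purple squares) and Ah2880 OE leaves (orange triangles). The WT line falls from 0.47 to −0.85 with GC content and goes from −1.18 to 0.03 with length, and the other lines stay between −0.08 and 0.11.

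Both transgenic lines were sampled at the same recovery days, which allowed a test of whether the change in WT differed. All the following contrasts share the WT libraries. The change in WT differed from that in AhHAB4-PAI-1 OE leaves for 2417 genes (12.2% of those tested), with a more positive change in WT for 3.29% and a more negative one for 8.94%. Of these, 644 were abundant (54.6%, with 23.0% more positive and 31.6% more negative in WT). It differed from that in Ah2880 OE leaves for 2083 genes (10.5%, with 3.55% more positive and 6.99% more negative in WT), of which 649 were abundant (55.0%, with 21.4% and 33.7%). These splits depended on the scaling and the tool. Against AhHAB4-PAI-1 OE leaves, 650 more positive and 1767 more negative genes became 936 and 929 with library totals and 948 and 530 with the DESeq2 Wald test, and 271 and 373 abundant genes became 368 and 280, and 321 and 284. Against Ah2880 OE leaves, 701 and 1382 became 877 and 894, and 939 and 464, and 252 and 397 abundant genes became 322 and 326, and 291 and 318. By itself, the change from R-1 to R-3 was called for 3473 genes in AhHAB4-PAI-1 OE leaves (17.6%, with 10.9% higher and 6.7% lower). In Ah2880 OE leaves edgeR called 0 genes, and 1073 had an unadjusted p under 0.05, near the share expected without any change. With all libraries reduced to 46825 counts, the changes called were 820 in WT, 108 in AhHAB4-PAI-1 OE and 0 in Ah2880 OE leaves (107 at an unadjusted p under 0.05), of 2284 genes tested. The 107 are likewise near the share expected without any change.

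The following counts include members that reached 100 CPM at one stage of WT only. Since 0 genes were called in Ah2880 OE leaves, the contrast with that line largely repeats the change in WT and is no second test. Among all abundant genes, 31.6% had a more negative change in WT than in AhHAB4-PAI-1 OE leaves and 23.0% a more positive one. Against Ah2880 OE leaves these shares were 33.7% and 21.4%. All 40 abundant photosystem genes had a more negative change in WT than in AhHAB4-PAI-1 OE leaves, where 39 of them were higher at R-3 with a median of 1.24. Against Ah2880 OE leaves, 38 were more negative in WT. Of the 15 Calvin cycle genes, all 15 were more negative in WT than in either line. Of the 13 starvation genes, 12 had a more positive change in WT than in either line. Small HSP genes were ordered differently, since 5 of 8 cytosolic members had a less negative change in WT than in AhHAB4-PAI-1 OE leaves (median −2.36 there, 7 lower) and 5 a more negative one than in Ah2880 OE leaves (median 0.16). The 3 abundant jasmonate genes were lower in AhHAB4-PAI-1 OE leaves too (median −1.20), and their change was more negative in WT than in either line.

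PCK2, ASN1 and DIN2 were also detected in Ah2880 OE leaves at both recovery stages. PCK2 stood at 117 ± 20 and 93.2 ± 6.5 CPM in Ah2880 OE leaves at R-1 and R-3, against 820 CPM in WT leaves at R-3. Its counts in the Ah2880 OE libraries were 117 and 141 at R-1 and 116 and 226 at R-3, and in AhHAB4-PAI-1 OE libraries 0 and 3, then 2 and 1. ASN1 stood at 704 ± 53 and 642 ± 41 CPM in Ah2880 OE leaves at R-1 and R-3 and at 30.3 ± 3.0 and 79.9 ± 1.2 CPM in AhHAB4-PAI-1 OE leaves. DIN2 stood at 417 ± 29 and 369 ± 3 CPM in Ah2880 OE and at 10.8 ± 1.0 and 47.9 ± 3.0 CPM in AhHAB4-PAI-1 OE leaves. In each of these genes WT at R-3 was the highest of all 15 treatments, followed by both Ah2880 OE recovery stages.

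Of the 274 abundant genes higher at WT R-3, 121 (44.2%) had their highest mean among the other 13 treatments in Ah2880 OE leaves at R-1 and 83 (30.3%) in Ah2880 OE leaves at R-3, against 19.5% and 13.7% of all abundant genes. Of the 419 lower genes, 116 (27.7%) and 70 (16.7%) had their lowest mean there, against 13.3% and 7.89%. Neither WT R-1 nor WT R-3 was among those 13 treatments. RAB18 stood at 652 ± 3 and 909 ± 55 CPM in Ah2880 OE leaves, and LTP4 at 567 ± 23 and 606 ± 2 CPM. CAB1 stood at 2979 ± 1 and 3688 ± 30 CPM there and at 9305 ± 1906 CPM in AhHAB4-PAI-1 OE leaves at R-3, against 341 CPM in WT.

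**Figure D5:**
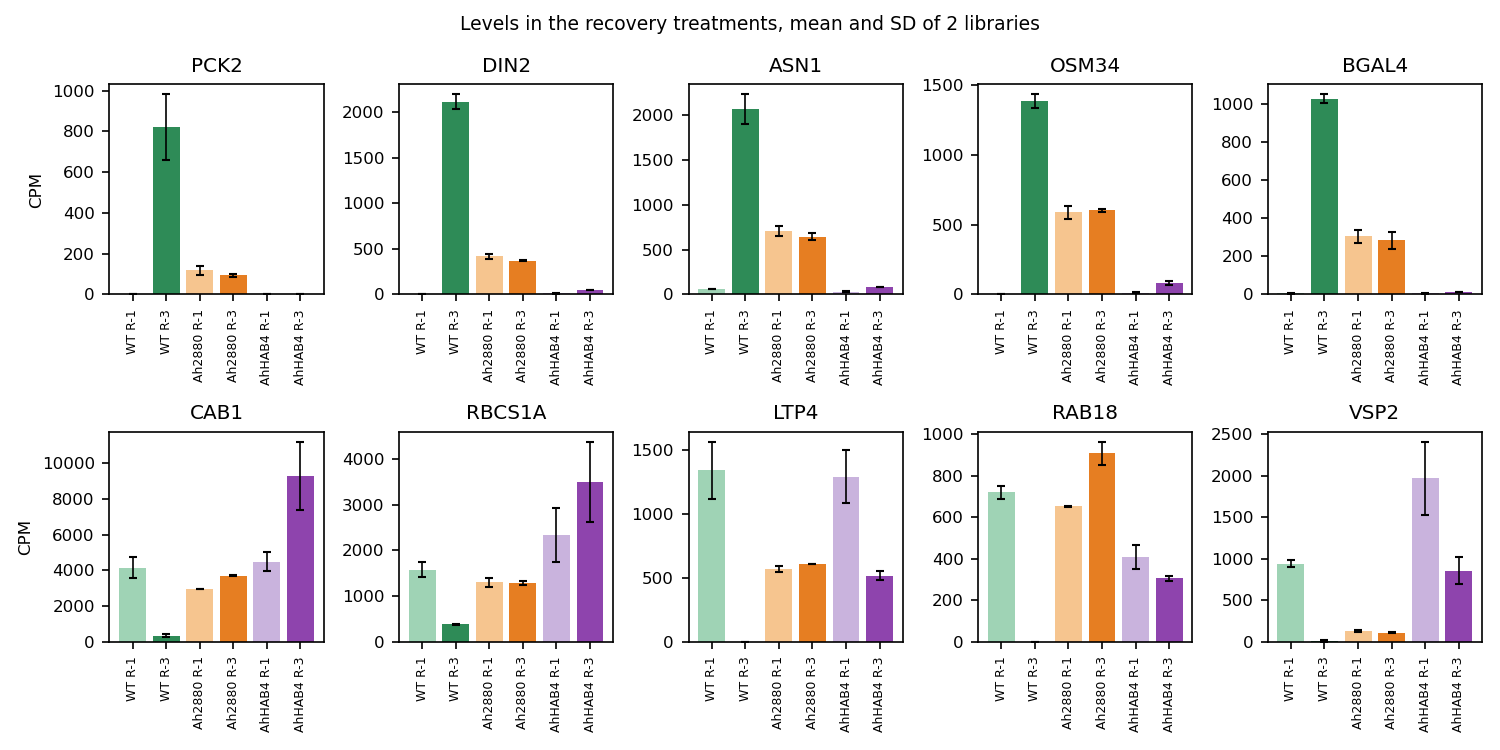
CPM (linear axes from 0, bars are means and error bars SD of 2 libraries) of 10 genes in the recovery treatments of WT (green), Ah2880 OE (orange) and AhHAB4-PAI-1 OE leaves (purple), with the paler bar for R-1. PCK2, DIN2, ASN1, OSM34 and BGAL4 are highest in WT at R-3, with both Ah2880 OE stages next. CAB1, RBCS1A, LTP4, RAB18 and VSP2 are lowest in WT at R-3.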

How the data were processed

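Leaf RNA of WT plants at R-1 and R-3 was compared, with 2 libraries per stage that the study calls biological replicates. The p-values rest on the spread between replicates over all 30 libraries of 15 treatments, and not on these samples alone. Across the abundant genes, the R-3 replicates correlated less well (r = 0.878) than the R-1 replicates (r = 0.994). A fit of only the compared libraries called 722 of 15608 genes tested, against 2344 of 19761 in the main fit. The authors deposited counts of reads per gene without normalization, made with Bowtie2 2.2.5 on TAIR10, Samtools 1.6, Picard 2.0.1 and Subread 2.0.0 per the submitters' processing notes. The counted reads are described as uniquely mapped, and annotation release and strand setting are not given in the sources used here. Suffixed repeats of entries (3911 of 37513) were kept.

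Counts were analyzed with edgeR 4.0.16 in R 4.3.3 (filterByExpr, TMM, glmQLFit, glmQLFTest) with 1 mean for each of 15 treatments over all 30 libraries and no replicate block. P-values were adjusted by the Benjamini-Hochberg method over 19761 genes, with a threshold of 0.01. Differences between lines were interaction contrasts of the same fit. DESeq2 1.42.0 served as an alternative. A fold against a stage with 0 counts is a bound with 3 counts over both libraries, and intervals (95%) are exact and cover counting error only. The method was also run on simulated counts with known changes in some of the abundant genes. That simulation held no gradient by GC content or length and no changes as large as the steepest here, so it does not cover these.

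The genes named were the 12 highest and 12 lowest abundant changes with separated groups, up to 4 most abundant members of each of 35 lists, the 10 most abundant genes at each stage, the 10 most abundant at R-1 with at most 3 counts in each R-3 library, and the 4 highest and lowest abundant interactions. For genes higher at R-3 a mean of 20 counts was required. Further list members were named after their values were seen. The members and lists were chosen with earlier results of these data known. Of 2 lists with few abundant members, alternative respiration (AOX1A −0.68) had none called, and anthocyanin genes had 2 of 8 tested lower (7.88% of all genes tested). In the aquaporin list 5 of 8 abundant members were lower, in the clock list 1 of 3 (GRP7, −3.01) and in the fermentation list 2 of 3. In the glucosinolate list it was 2 of 3 with 1 higher, and in the proteasome list 1 of 5. At one depth the fermentation genes ADH1 (−1.57, adjusted p = 0.011 in edgeR) and PDC2 (−0.49, adjusted p = 0.54) did not pass. Neither did PAF1 of the proteasome (−0.15, adjusted p = 0.85). Of all abundant genes, 35.5% were lower and 23.2% higher. In each of the aquaporin, fermentation, glucosinolate and proteasome lists, 2 abundant members reached 100 CPM only at R-1. A transcription factor group that the study chose on these samples had 7 of 12 tested members higher (3.98% of all genes tested), which is not independent evidence of its direction. Promoters and gene symbols came from RefSeq (TAIR10.1) and were matched by locus, with 10684 entries matched to a symbol. Figures were drawn with matplotlib 3.10.9.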

Additional observations from a re-analysis of the deposited data

Results flagged for a closer look

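The change from R-1 to R-3 differed between WT and AhHAB4-PAI-1 OE leaves for 2417 genes, and between WT and Ah2880 OE leaves for 2083 genes (edgeR interaction contrasts, adjusted p under 0.01). Both contrasts share the WT libraries, and the WT R-3 libraries were the smallest of the series. The genes with the largest differences are given with the levels in the lines.

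PCK2 rose from 0 to 820 CPM in WT and stood at 0.304 and 0.327 CPM in AhHAB4-PAI-1 OE and at 117 and 93.2 CPM in Ah2880 OE leaves at R-1 and R-3 (adjusted p = 8.5e-07 and 1.44e-27). AT5G48430 rose from 0.109 to 279 CPM in WT, with 0.304 and 1.80 CPM in AhHAB4-PAI-1 OE and 65.3 and 61.3 CPM in Ah2880 OE leaves (adjusted p = 0.000145 and 1.6e-20). AT1G30720 rose from 0.952 to 625 CPM in WT, with 3.28 and 4.96 CPM, and 218 and 199 CPM, in the same lines (adjusted p = 1.01e-17 and 7.73e-30).

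AT2G33160 rose from 0.571 to 290 CPM in WT and stood at 1.05 and 0.557 CPM in AhHAB4-PAI-1 OE leaves (adjusted p = 7.31e-10). GulLO2 rose from 0.136 to 265 CPM in WT and stood at 54.8 and 60.2 CPM in Ah2880 OE leaves (adjusted p = 1.1e-19).

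LTP4 had 0 counts in WT at R-3 after 1338 CPM at R-1, and stood at 1290 and 516 CPM in AhHAB4-PAI-1 OE and at 567 and 606 CPM in Ah2880 OE leaves (adjusted p = 3.79e-12 and 2.73e-17). RD22 went from 774 CPM to 0 counts in WT, with 608 and 573 CPM, and 609 and 714 CPM, in these lines (adjusted p = 5.43e-14 and 4.2e-15). RAB18 went from 720 CPM to 0 counts, with 409 and 306 CPM, and 652 and 909 CPM (adjusted p = 5.47e-11 and 4.57e-14). ELP went from 680 CPM to 0 counts, with 820 and 1146 CPM, and 39.0 and 41.1 CPM (adjusted p = 2.5e-14 and 3.47e-11).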

How the results depend on the processing

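The R-3 libraries set the limit of precision, since 3 counts there equalled 37.8 and 34.6 CPM. The count of 2344 genes was 820 with all libraries reduced to one depth and 722 when only the 4 libraries were fitted, and lay between 1132 and 2233 with 1 library left out. It was 1132 without replicate 1 of R-3 and 1136 without replicate 2. For abundant genes the 693 calls were 433 in the fit of the 4 libraries and 519 to 671 with 1 library left out. Limits of 50 and 200 CPM gave 1295 of 3059 and 275 of 392 genes. The difference from AhHAB4-PAI-1 OE leaves was called for 1478 genes with the DESeq2 Wald test, 456 at one depth (303 abundant) and 1090 to 2274 (488 to 617 abundant) with 1 library left out. The difference from Ah2880 OE leaves was called for 471 genes at one depth (372 abundant) and 1069 to 1991 (507 to 635 abundant). Smaller counts at one depth or in fits of fewer libraries come with fewer genes tested or fewer samples, and the other causes were not tested.

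The split of 787 higher and 1557 lower genes became 968 and 995 with library totals, 1124 and 488 with the DESeq2 Wald test and 815 and 1405 with TMM factors from abundant genes only, an alternative chosen after seeing the data. The aquaporin gene PIP3 was the only named gene whose sign turned (0.0025, adjusted p = 1, at one depth). That value lies below the median of 0.26 that abundant genes had at one depth. Between R-1 and R-3 of WT, the deviations of replicates with the same number correlated at −0.019. Given the counting error at R-3, this value cannot exclude a pairing. Over all pairs of treatments the coefficients ran from −0.75 to 0.56. A fit with the replicate numbers as a block called 2327 genes. Without suffixed repeats of entries the 3 counts were 2325, 2404 and 2062.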
